A study of Mus musculus with 17 samples.

Results

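Transcript levels of 10 growth factor and growth factor receptor genes were followed in kidney macrophages of lupus-prone mice. The genes were chosen as a named set, with earlier results of these data known, and found by gene symbol among 15780 genes with a probe set. They were the TGF-beta ligands Tgfb1, Tgfb2 and Tgfb3, the TGF-beta receptors Tgfbr1 and Tgfbr2, the PDGF ligands Pdgfa, Pdgfb and Pdgfc, and the growth factors Igf1 and Vegfa. All 10 had 1 probe set each, and no filter on level was applied. The macrophages were F4/80hi cells sorted by flow cytometry from kidneys of NZB/W mice, a hybrid strain that develops a spontaneous lupus-like nephritis. Each of 17 samples was measured on 1 Affymetrix array. The prenephritic group held 6 arrays of mice aged 8 to 16 weeks. The nephritic group held 7 arrays of mice taken 2 to 6 weeks into proteinuria, ahead of end-stage kidney failure. The remission group held 4 arrays of mice 3 to 4 weeks after complete remission, reached with 1 dose of the cytotoxic drug cyclophosphamide, 6 doses of CTLA4Ig, which blocks T cell costimulation, and the antibody anti-CD154, which binds CD40 ligand. Remission and these drugs cannot be told apart here. Nor can nephritis and the age of the mice, since the labels give an age for the prenephritic group alone. The labels do not say whether arrays of a group came from separate mice or pools, so the p-values reflect the variation among these samples and nothing wider.

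TGF-beta is secreted in a latent complex, from which integrins, proteases and thrombospondin release the active ligand. The ligand binds TGFBR2, which recruits and phosphorylates TGFBR1, and TGFBR1 then phosphorylates SMAD2 and SMAD3, which enter the nucleus with SMAD4. PDGF ligands act on tyrosine kinase receptors of mesangial cells, pericytes and fibroblasts, IGF1 acts on growth and survival of many cell types, and VEGFA acts on the endothelium. Macrophages are a known source of these factors in healing and scarring kidney.

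The 250 bases before the start of Tgfbr1, which codes for the type I receptor, and of Tgfbr2, which codes for its partner, are shown. They are from RefSeq on mouse GRCm38.p6. They lie at chr4:47352972-47353221 on the + strand for Tgfbr1 and chr9:116175364-116175613 on the - strand for Tgfbr2, and are given 5′ to 3′ along the gene. Capitals mark GC boxes (GGGCGG) and CCAAT boxes (CCAAT), each searched on both strands, with no overlapping matches.
Tgfbr1: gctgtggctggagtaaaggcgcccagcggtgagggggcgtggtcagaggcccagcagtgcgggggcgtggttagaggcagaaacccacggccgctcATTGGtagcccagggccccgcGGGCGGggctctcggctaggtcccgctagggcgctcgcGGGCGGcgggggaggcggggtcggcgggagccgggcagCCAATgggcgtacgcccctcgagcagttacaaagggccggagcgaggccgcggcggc
Tgfbr2: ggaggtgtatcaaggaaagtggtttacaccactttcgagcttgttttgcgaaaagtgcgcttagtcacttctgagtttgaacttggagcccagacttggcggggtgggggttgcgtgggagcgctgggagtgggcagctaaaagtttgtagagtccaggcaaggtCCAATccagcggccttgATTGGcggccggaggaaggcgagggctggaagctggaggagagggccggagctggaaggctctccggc
The Tgfbr1 window was 74.8% G or C and held 2 GC boxes and 2 CCAAT boxes. The Tgfbr2 window was 58.4% G or C and held 2 CCAAT boxes and 0 GC boxes. A second Tgfbr1 start in the table, at chr4:47385966-47386215, had a window with 0 of either. Of 32851 windows of the same length over all genes, 32.74% held a GC box and 33.85% a CCAAT box, and neither window held the TATA box letters TATAAA, which 12.37% of windows held. These matches describe letters in a window, and their relation to the expression values was not tested. Windows were found for 8 of the 10 genes.

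Expression values are log2 values from RMA, which corrects background, equalises the distributions of the arrays and combines the probes of a gene, so a difference of 1 is a 2-fold difference. Values on all arrays ran from 1.76 to 15.00, with a lower quartile of 4.99 over all probe sets and arrays, and array medians lay between 7.49 and 7.68. Pearson correlations between arrays ran from 0.942 to 0.994. Of 10 macrophage markers, 9 had a mean above the upper quartile of all values (9.64) in every group. The exception, Mertk, averaged 8.74 in prenephritic, 9.96 in nephritic and 8.70 in remission macrophages. It was the 1 macrophage marker called between nephritic and prenephritic macrophages (1.22 ± 0.21, SE, limma adjusted p = 0.00122). Between remission and nephritic macrophages 1 marker of this list was called lower and 0 higher. The mean of the macrophage list was 12.34 to 12.64 on prenephritic, 12.50 to 12.75 on nephritic and 12.41 to 12.66 on remission arrays. Transcripts of other kidney cells were also present in these sorted samples. The mean of 14 proximal tubule markers was 9.11 to 11.02 on prenephritic, 7.82 to 10.96 on nephritic and 10.05 to 11.50 on remission arrays, and nephritic replicate 3 was the lowest of all. Because the samples are bulk RNA, fewer cells of a type and less RNA per cell cannot be told apart.

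Between nephritic and prenephritic macrophages, the TGF-beta type I receptor gene Tgfbr1 and the PDGF-B gene Pdgfb fell, by 0.66 and 0.59 on the log2 scale, and the other 8 genes passed no test after adjustment. The 3 TGF-beta ligand genes and Tgfbr2 were among those 8, as were Pdgfa, Pdgfc, Igf1 and Vegfa. Thus 0 of the 10 genes were called higher and 2 of 10, or 20%, were called lower, where 12.1% of all 15780 genes were called in this comparison, 6.74% higher and 5.32% lower (limma with Benjamini-Hochberg adjustment, threshold 0.05). The median difference of the 10 genes was 0.10, against -0.02 for all genes. At an unadjusted p under 0.05, 4 of the 10 differed, Tgfbr1, Pdgfb, Pdgfc and Igf1. At least the 12.1% of all genes called here had such a p, and the full share was not counted.

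Tgfbr1 codes for the kinase receptor also known as ALK5. It ran from 9.37 to 10.10 with a median of 9.62 on nephritic arrays, against 9.97 to 11.03 with a median of 10.32 on prenephritic arrays. All but 2 of the 7 nephritic arrays, replicates 3 and 5, lay below every prenephritic array, and the groups overlapped through those replicates. The means were 9.71 ± 0.28 in nephritic and 10.38 ± 0.43 in prenephritic macrophages (SD, n = 7 and 6), a difference of -0.66 ± 0.17 (SE, 95% interval -1.03 to -0.29), which is 1.58-fold lower in nephritic macrophages (limma adjusted p = 0.0196). The call stood when any 1 array was left out. It was lost when nephritic replicate 6 and prenephritic replicate 5, the lowest and highest Tgfbr1 arrays, were left out together (-0.48, adjusted p = 0.084). Leaving out these extremes makes the Tgfbr1 difference smaller by construction.

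Tgfbr2 codes for the type II receptor that binds the ligand first. It ran from 10.64 to 10.92 with a median of 10.81 on nephritic arrays, against 10.37 to 11.04 with a median of 10.75 on prenephritic arrays. The nephritic arrays lay inside the prenephritic range. The difference was 0.07 ± 0.10 (SE, 95% interval -0.14 to 0.29, adjusted p = 0.73). The interval of the Tgfbr1 difference was -1.03 to -0.29, and no test compared the differences of these genes.

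Among the ligands, Tgfb1, the isoform best known from fibrosis and from immune cells, ran from 9.83 to 11.07 with a median of 10.54 on nephritic arrays, against 10.10 to 10.64 with a median of 10.52 on prenephritic arrays. The nephritic arrays spanned the whole prenephritic range, with 1 array below it and 2 above it. The difference was 0.08 ± 0.18 (95% interval -0.31 to 0.47, adjusted p = 0.85). Tgfb3, an isoform known from palate closure and wound repair, averaged 7.38 ± 0.52 in nephritic and 6.93 ± 0.56 in prenephritic macrophages, with overlapping groups and a difference of 0.45 ± 0.27 (95% interval -0.13 to 1.03, adjusted p = 0.33). Tgfb2, known from development of heart and eye, averaged 5.51 ± 0.28 in nephritic and 5.38 ± 0.23 in prenephritic macrophages, with a difference of 0.13 ± 0.16 (95% interval -0.20 to 0.47). Its values, 5.04 to 5.90 on nephritic and 5.16 to 5.71 on prenephritic arrays, lay close to the lower quartile of all values, where RMA compresses differences.

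Pdgfb codes for the B chain, the main PDGF acting on mesangial cells and pericytes through PDGF receptor beta. It ran from 9.02 to 9.68 with a median of 9.29 on nephritic arrays, against 9.72 to 10.37 with a median of 9.87 on prenephritic arrays. Every nephritic array lay below every prenephritic array, so the groups did not overlap, which was so for 4.68% of all genes and for 1 of the 10 genes. The means were 9.36 ± 0.24 in nephritic and 9.94 ± 0.24 in prenephritic macrophages (SD, n = 7 and 6), a difference of -0.59 ± 0.13 (SE, 95% interval -0.86 to -0.31), which is 1.5-fold lower in nephritic macrophages (limma adjusted p = 0.00655). The difference was -0.64 to -0.50 with any 1 array left out, and the call stood each time.

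Platelets and endothelial cells also make PDGF-B. Of 8 measured platelet markers, 1 was called lower in nephritic macrophages, Pf4, and 0 were called higher, and the list's mean per array was 6.11 to 6.54 on nephritic and 6.30 to 6.60 on prenephritic arrays. Of 11 endothelial markers, 1 was called higher, Pecam1, which macrophages also express, and 0 were called lower. The endothelial list's mean was 6.84 to 7.60 on nephritic and 6.49 to 7.53 on prenephritic arrays. Cdh5 averaged below the lower quartile of all values in both groups, and the other 10 endothelial markers above it, with Kdr, which codes for VEGF receptor 2, at 8.59 in nephritic and 8.43 in prenephritic macrophages. The part of either cell type in the Pdgfb difference was not tested.

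Markers of lymphocytes, monocytes, dendritic cells and NK cells differed between the stages as well, some higher and some lower. Of 8 T cell markers, 4 were called higher and 0 lower in nephritic macrophages, with list means of 5.43 to 5.94 on nephritic and 4.97 to 5.48 on prenephritic arrays. Of 8 B cell and plasma cell markers, 5 were called higher and 1 lower, with list means of 7.23 to 8.20 on nephritic and 6.36 to 7.53 on prenephritic arrays. Of 6 monocyte markers, 3 were called higher and 0 lower, with list means of 8.32 to 9.11 on nephritic and 7.87 to 8.70 on prenephritic arrays. Of 7 conventional dendritic cell markers, 1 was called higher, Xcr1, and 2 lower, with list means of 5.92 to 7.24 on nephritic and 5.56 to 8.10 on prenephritic arrays. The 2 were Cd209a, at 4.20 in nephritic and 7.93 in prenephritic macrophages (-3.73 ± 0.65), and Flt3, at 5.38 in nephritic and 7.01 in prenephritic macrophages (-1.63 ± 0.50). Of 8 NK cell markers 1 was called lower, Klrd1 (-2.04 ± 0.49), of 7 mast cell and eosinophil markers 1 was called lower, Mcpt4 (-1.18 ± 0.30), and of 7 podocyte markers 1 was called lower, Ptpro (-0.30 ± 0.08), with 0 called higher in each. Of the neutrophil and erythrocyte lists 0 were called. The part of all these cell types in the Tgfbr1 and Pdgfb differences was not tested.

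Pdgfa, the A chain, which acts mainly through PDGF receptor alpha, averaged 8.55 ± 0.19 in nephritic and 8.44 ± 0.20 in prenephritic macrophages, with a difference of 0.11 ± 0.10 (95% interval -0.10 to 0.32, adjusted p = 0.56). Pdgfc codes for a PDGF that needs a protease to remove its CUB domain before it can act. It ran from 9.10 to 10.38 with a median of 9.80 on nephritic arrays, against 7.82 to 10.39 with a median of 8.80 on prenephritic arrays. The nephritic arrays had an SD of 0.44, against 0.97 for the more widely spread prenephritic arrays, and replicate 6 of the prenephritic group was the highest of all arrays. The difference was 0.82 ± 0.35 (95% interval 0.08 to 1.56) and did not pass after adjustment (limma adjusted p = 0.151). Single arrays moved it in both directions: it was 1.10 without prenephritic replicate 6 (adjusted p = 0.0278) and 0.59 without prenephritic replicate 5 (adjusted p = 0.330). Without prenephritic replicate 5 and nephritic replicate 6 together it was 0.49 (adjusted p = 0.474).

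Igf1, the insulin-like growth factor that macrophages supply in wound and muscle repair, ran from 9.53 to 10.65 with a median of 10.21 on nephritic arrays, against 8.75 to 10.41 with a median of 9.86 on prenephritic arrays. The groups overlapped, and 2 low prenephritic arrays, replicates 2 and 5, lay below every nephritic array. The difference of 0.53 ± 0.24 (95% interval 0.02 to 1.03) did not pass after adjustment (limma adjusted p = 0.176). Vegfa, the growth factor that podocytes and tubule cells supply to kidney capillaries, averaged 6.57 ± 0.35 in nephritic and 6.47 ± 0.47 in prenephritic macrophages, a difference of 0.10 ± 0.24 (95% interval -0.40 to 0.60).

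**Figure D1:**
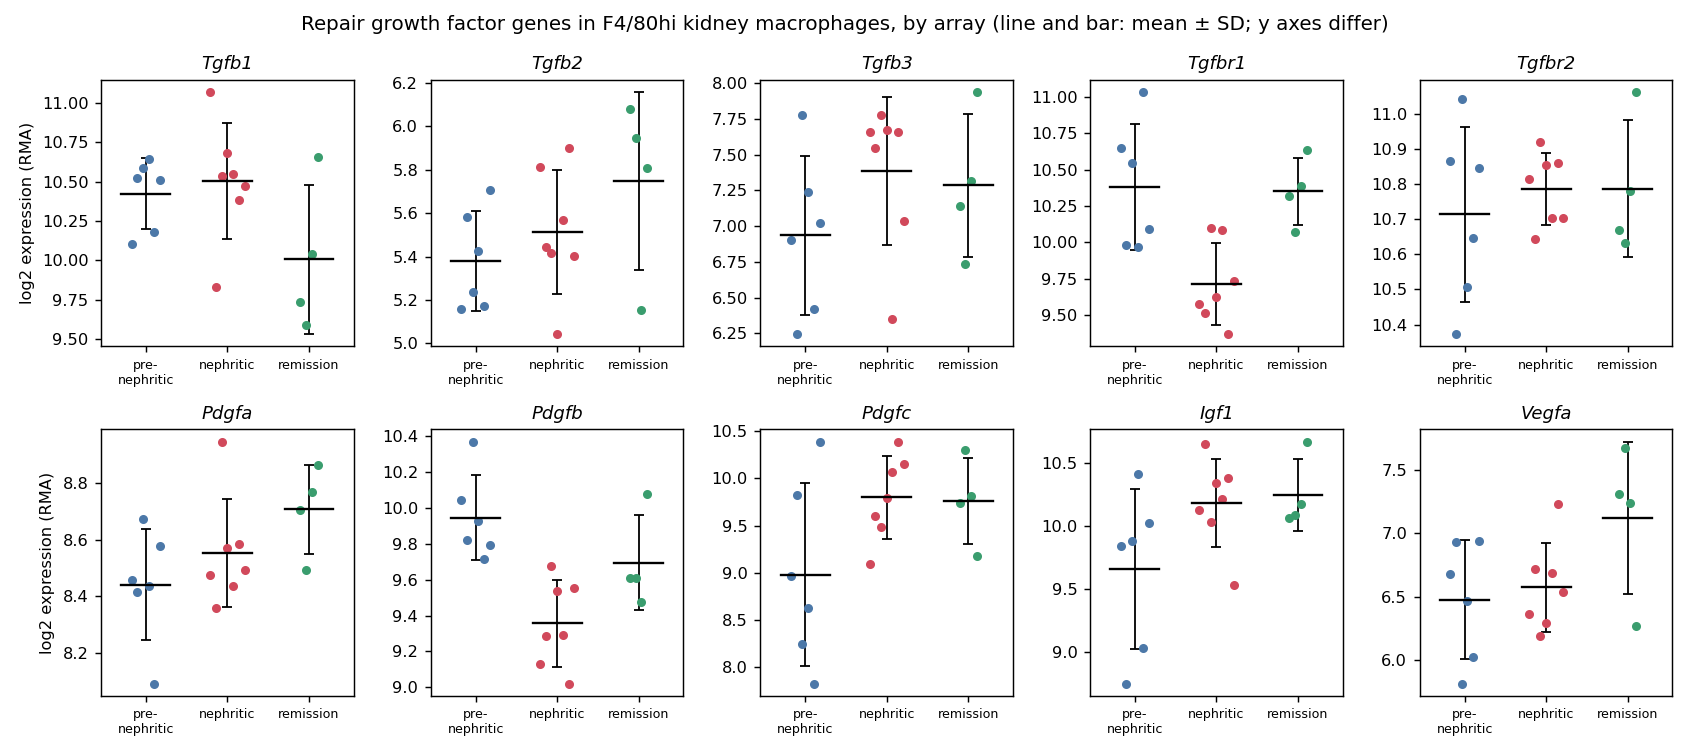
Log2 expression of each of the 10 genes (vertical axes, RMA log2 values) on every array of the prenephritic (n = 6), nephritic (n = 7) and remission (n = 4) groups. Each point is 1 array and the bars show the mean and SD; the Tgfbr1 and Pdgfb panels show the low nephritic means of 9.71 and 9.36.

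In the comparison of remission with nephritic macrophages, which shares its 7 nephritic arrays with the first comparison, Tgfbr1 rose by 0.64 on the log2 scale and the other 9 genes passed no test after adjustment. Thus 1 of the 10 genes, or 10%, was called higher and 0 lower, where 13.3% of all genes were called, 3.27% higher and 10% lower (limma with Benjamini-Hochberg adjustment). The median difference was 0.11 for the 10 genes and -0.03 for all genes. At an unadjusted p under 0.05, 3 of the 10 differed, Tgfbr1, Tgfb1 and Pdgfb. At least the 13.3% of all genes called here had such a p, and the full share was not counted. The groups overlapped for every one of the 10 genes, while 8.65% of all genes had groups that did not overlap.

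Tgfbr1 stood at 10.32, 10.07, 10.39 and 10.63 on the 4 remission arrays, against 9.37 to 10.10 with a median of 9.62 on nephritic arrays. Of these 4 arrays, 3 lay above every nephritic array, and remission replicate 2 lay just under nephritic replicates 3 and 5. The means were 10.35 ± 0.23 in remission and 9.71 ± 0.28 in nephritic macrophages, a difference of 0.64 ± 0.20 (SE, 95% interval 0.22 to 1.05), which is 1.55-fold higher in remission (limma adjusted p = 0.0418). This call lay close to the threshold. It was lost when nephritic replicate 1, 2, 4, 6 or 7, or any of the 4 remission arrays, was left out, with differences of 0.54 to 0.73 and adjusted p-values of 0.0552 to 0.0966, and when array medians were subtracted (0.63, adjusted p = 0.0689).

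Lymphocyte, monocyte and dendritic cell markers were among the genes called lower in remission. Of 8 T cell markers, 5 were called lower and 0 higher against nephritic macrophages, with list means of 4.93 to 5.10 on remission and 5.43 to 5.94 on nephritic arrays. Of 8 B cell and plasma cell markers 3 were called lower and 1 higher, of 8 NK cell markers 3 lower and 0 higher, and of 6 monocyte markers 3 lower and 0 higher. Of 7 conventional dendritic cell markers 2 were called lower, Xcr1 and Zbtb46, and 0 higher. Of 12 fibroblast and mesangial cell markers 2 were called lower, Mgp and Pdgfrb, and 1 higher, Itga8, of 11 endothelial markers 1 lower, Pecam1, and 1 higher, Ehd3, and of 7 mast cell and eosinophil markers 0 lower and 1 higher, Mcpt4. Of 11 distal tubule and collecting duct markers 2 were called higher and 0 lower, with list means of 9.23 to 10.63 on remission and 7.50 to 9.90 on nephritic arrays. The part of these cells in the Tgfbr1 difference was not tested, beyond the fit with tubule transcripts given further on.

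Pdgfb stood at 9.61, 9.61, 9.48 and 10.08 on the remission arrays, against 9.02 to 9.68 with a median of 9.29 on nephritic arrays. Remission replicate 4 lay above every nephritic array and the other 3 lay inside the nephritic range. The difference of 0.34 ± 0.15 (95% interval 0.03 to 0.65) did not pass after adjustment (limma adjusted p = 0.135).

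Tgfb1 stood at 9.74, 9.59, 10.04 and 10.66 on the remission arrays, against 9.83 to 11.07 with a median of 10.54 on nephritic arrays. Remission replicates 1 and 2 lay below every nephritic array, while replicate 4 lay above the nephritic median. The difference of -0.50 ± 0.21 (95% interval -0.94 to -0.06) did not pass after adjustment (limma adjusted p = 0.120). It passed without remission replicate 4 (-0.72, adjusted p = 0.0208), without nephritic replicate 2 (-0.61, adjusted p = 0.0393) and with weights on the arrays (-0.57, adjusted p = 0.0325). It was -0.36 without remission replicate 2 (adjusted p = 0.382) and, with the tubule score described further on in the fit, also -0.36 (adjusted p = 0.409).

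Vegfa stood at 7.31, 7.68, 7.24 and 6.27 on the remission arrays, against 6.19 to 7.23 with a median of 6.53 on nephritic arrays. The first 3 remission arrays lay above every nephritic array and replicate 4 lay near the bottom of the nephritic range. The difference was 0.55 ± 0.27 (95% interval -0.01 to 1.12, limma adjusted p = 0.182). It passed without remission replicate 4 (0.83, adjusted p = 0.0309) and with weights on the arrays (0.65, adjusted p = 0.0464). It was 0.37 without remission replicate 2 (adjusted p = 0.508) and 0.30 without the 3 arrays farthest from the median tubule score, nephritic replicate 3, remission replicate 2 and prenephritic replicate 3 (adjusted p = 0.590).

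The remaining 6 genes were not called between remission and nephritic macrophages, with intervals of very different width. Pdgfc stood at 9.74, 10.30, 9.82 and 9.18 on the remission arrays, within the nephritic range of 9.10 to 10.38, and differed by -0.04 ± 0.40 (95% interval -0.87 to 0.80). Igf1 stood at 10.06, 10.08, 10.17 and 10.67 on the remission arrays, close to the nephritic median of 10.21, and differed by 0.06 ± 0.27 (95% interval -0.51 to 0.63). The remission arrays of both genes lay among the nephritic arrays, except that Igf1 on replicate 4 lay just above them, and the Pdgfc interval is wide enough to hold a difference as large as that of Tgfbr1. Tgfbr2 stood at 10.67, 10.63, 10.78 and 11.06 on the remission arrays and differed by 0.00 ± 0.11 (95% interval -0.24 to 0.24). The remaining differences were 0.15 ± 0.11 for Pdgfa (-0.09 to 0.40), 0.24 ± 0.18 for Tgfb2 (-0.14 to 0.61) and -0.10 ± 0.31 for Tgfb3 (-0.75 to 0.55).

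None of the 10 genes passed the test between remission and prenephritic macrophages after adjustment. With limma, 0 of 10 were called, against 0.00634% of all genes, or 1 of 15780. At an unadjusted p under 0.05, 3 of 10 differed. The share of all genes at that threshold was not counted, so whether 3 of 10 exceeds it is not known. The groups overlapped for each of the 10 genes and were apart for 2.32% of all genes. The 3 were Vegfa (0.65 ± 0.27, limma adjusted p = 0.236), Pdgfa (0.26 ± 0.12, adjusted p = 0.249) and Igf1 (0.59 ± 0.28, adjusted p = 0.265), each higher in remission. Tgfbr1 averaged 10.35 ± 0.23 in remission and 10.38 ± 0.43 in prenephritic macrophages, a difference of -0.03 ± 0.20 (95% interval -0.46 to 0.40). The interval of the nephritic difference of -0.66, -1.03 to -0.29, overlaps this one, and both differences use the prenephritic arrays. Pdgfb averaged 9.69 ± 0.26 in remission and 9.94 ± 0.24 in prenephritic macrophages, a difference of -0.25 ± 0.15 (95% interval -0.57 to 0.07). Tgfb1 differed by -0.42 ± 0.21 (-0.87 to 0.03), Pdgfc by 0.78 ± 0.41 (-0.08 to 1.64), Tgfb2 by 0.37 ± 0.18 (-0.02 to 0.75) and Tgfbr2 by 0.07 ± 0.12 (-0.18 to 0.32). The median difference was 0.31 for the 10 genes and -0.05 for all genes.

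In order of group means, Tgfbr1 and Pdgfb were lowest in nephritic, intermediate in remission and highest in prenephritic macrophages. For Tgfbr1 the upper neighbours, remission and prenephritic, did not differ beyond their spread. For Pdgfb neither the step from nephritic to remission nor that from remission to prenephritic passed the test. Tgfb1 was lowest in remission, and Vegfa, Pdgfa, Tgfb2 and Igf1 were highest there, and no neighbouring means of these 5 genes differed past the threshold. Pdgfc and Tgfb3 had their highest mean in nephritic and their lowest in prenephritic macrophages, also without a passing step. Tgfbr2 averaged 10.71 in prenephritic and 10.79 in both nephritic and remission macrophages.

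**Figure D2:**
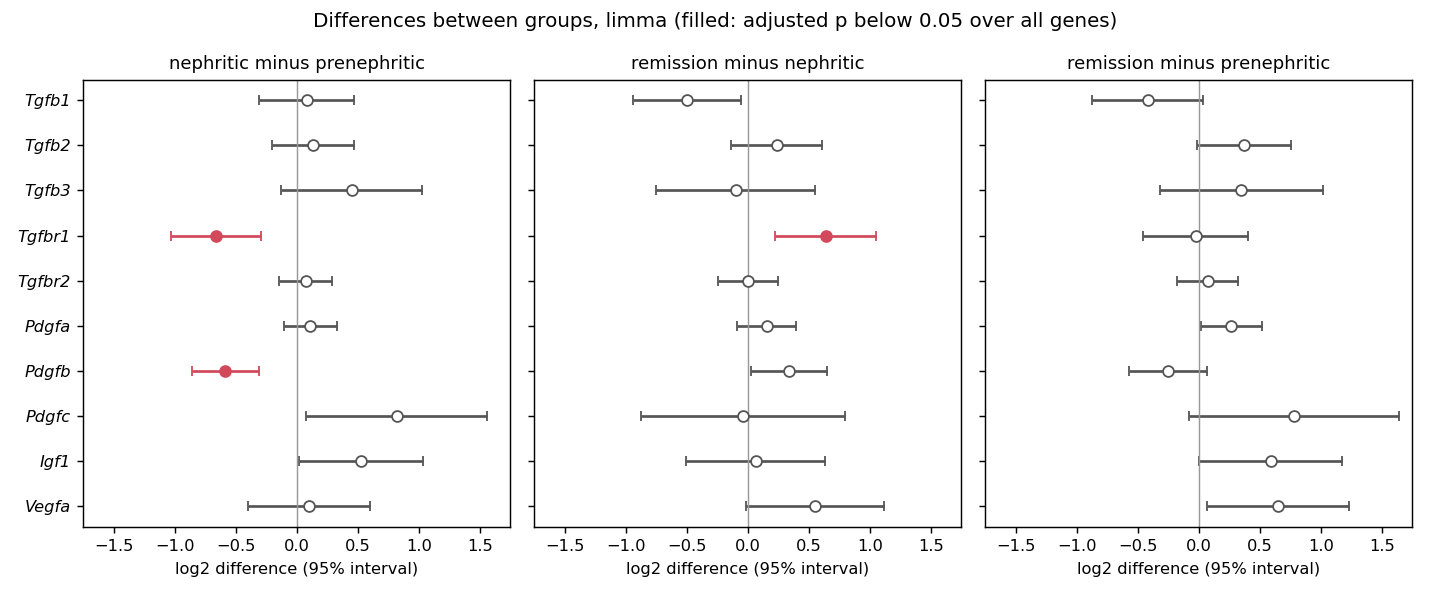
Log2 differences of the 10 genes with 95% intervals (horizontal axis) in each of the 3 comparisons, nephritic minus prenephritic first. The intervals of Tgfbr1 (-1.03 to -0.29) and Pdgfb (-0.86 to -0.31) lie below 0 in the first comparison, and that of Tgfbr1 (0.22 to 1.05) lies above 0 in the second.

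Tubule transcripts varied between arrays of the same group, and Vegfa and Pdgfb varied with them. A tubule score was taken as the mean of 25 proximal and distal tubule markers, each centred over the arrays, and a slope on it was fitted with limma for each gene together with the group means, a choice made after the data had been seen. The score was -1.01 to 0.75 on prenephritic and -2.06 to 0.61 on nephritic arrays, and 1.02, 1.37, 0.66 and -0.06 on the 4 remission arrays. Vegfa rose by 0.47 ± 0.11 per unit of the score (SE, adjusted p = 0.0059), and Pdgfb fell by 0.24 ± 0.06 per unit (adjusted p = 0.0157). These were 2 of the 10 genes with a slope past the threshold, 1 positive and 1 negative, where 20% of all genes had one, 10.7% positive and 9.3% negative. Pdgfc had a slope of 0.55 ± 0.19 (adjusted p = 0.054), and Tgfbr1 one of -0.25 ± 0.10 (adjusted p = 0.0811).

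With the score in the fit, the Vegfa difference between remission and nephritic macrophages was 0.05, where it was 0.55 without the score. The remission array with the lowest Vegfa, replicate 4, also had the lowest score of that group. The Pdgfb difference between remission and nephritic macrophages was 0.59 with the score (adjusted p = 0.00859), against 0.34 without it, and the Tgfbr1 difference was 0.91 (adjusted p = 0.00981), against 0.64. Between nephritic and prenephritic macrophages, Tgfbr1 differed by -0.71 (adjusted p = 0.00374), Pdgfb by -0.63 (adjusted p = 0.000323) and Pdgfc by 0.92 (adjusted p = 0.0367) with the score in the fit. Between remission and prenephritic macrophages Vegfa differed by 0.24 with the score (adjusted p = 0.873), against 0.65 without it, and Pdgfc by 0.30 (adjusted p = 0.920), against 0.78. When the 3 arrays with the most extreme scores were left out, Vegfa differed there by 0.33 (adjusted p = 0.809). That fit held no score. In it, Pdgfb differed by 0.42 (adjusted p = 0.110) and Tgfbr1 by 0.79 (adjusted p = 0.0501) between remission and nephritic macrophages. Between nephritic and prenephritic macrophages Pdgfc differed by 0.72 (adjusted p = 0.268). Tgfbr1 (-0.69, adjusted p = 0.0318) and Pdgfb (-0.56, adjusted p = 0.0106) passed there. Remission replicates 1, 2 and 3 scored above every nephritic array, so the fit with the score reaches past the scores both groups share.

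**Figure D3:**
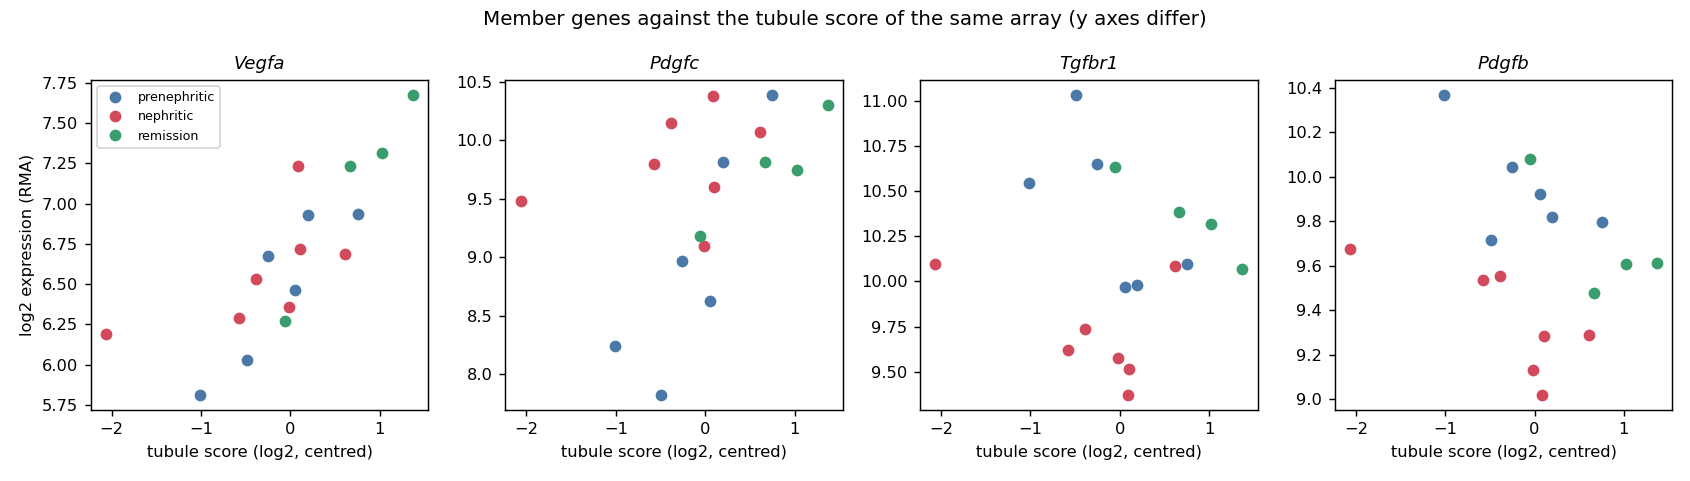
Log2 expression of Vegfa, Pdgfb, Pdgfc and Tgfbr1 (vertical axes) against the tubule score of each array (horizontal axis, mean centred log2 value of 25 tubule markers), with 1 point per array coloured by group. The slopes fitted together with the group means, 0.47 for Vegfa and -0.24 for Pdgfb, apply within groups and are not drawn. Nephritic replicate 3 stands apart at a score of -2.06.

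The genes whose pattern over the 17 arrays was most like that of the 2 called genes were found by Pearson correlation, given as a description since all arrays are shared. For Tgfbr1 these were Mosmo (r = 0.919), whose product modulates Smoothened, Lbr (0.917), the lamin B receptor gene, and Ice1 (0.914), a component of the little elongation complex. For Pdgfb they were Fbxo32 (0.937), a ubiquitin ligase subunit known from muscle, Phf1 (0.926), a partner of the Polycomb complex, and Ramp1 (0.925), a subunit of the receptor for calcitonin gene-related peptide.

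Further genes of the same pathways were taken from 10 lists with 154 genes, of which 135 were measured. The lists were chosen with earlier results of these data known, so their shares are descriptions and no test of enrichment. Between nephritic and prenephritic macrophages 14 were called higher and 6 lower by limma, and between remission and nephritic macrophages 5 higher and 19 lower. Between remission and prenephritic macrophages 0 of 135 were called in either direction. There 31 had an unadjusted p under 0.05. The share of all genes at that threshold was not counted, so whether 31 of 135 exceeds it is not known. In the first of these comparisons 14.8% of the 135 genes were called (10.4% higher and 4.44% lower), against 12.1% of all genes (6.74% and 5.32%). In the second 17.8% were called (3.7% higher and 14.1% lower), against 13.3% of all genes (3.27% and 10%). The lists as a whole thus lay near the shares of all genes, and the counts per list that follow are to be set beside the same shares. Over the 8 lists other than TGF-beta latency and activation and TGF-beta response genes, between 0% and 33.3% of a list were called in each of these 2 comparisons. Of the 44 differences called, 12 were lost with the tubule score in the fit, all between remission and nephritic macrophages (adjusted p of 0.0640 to 0.214), namely those of Nrros, Map3k7, Usp15, Lrp1, Pdgfrb, Igfbp5, Igf1r, Igfbp6, Vegfb, Arnt, Hgf and Metrnl. Of these 12 differences 11 were smaller with the score and 1 was larger, Pdgfrb (-0.72, against -0.63 without the score), and those of Map3k7, Igfbp5, Arnt and Hgf shrank by more than 1.5 times. The median differences over the 135 genes were 0.07, -0.05 and 0.00, against -0.02, -0.03 and -0.05 for all genes. Losses given gene by gene below are mainly those with 1 array left out. The other alternatives lost further calls, counted in the closing section.

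Of 15 measured genes of TGF-beta latency and activation, 5 were called higher and 1 lower in nephritic against prenephritic macrophages. That was 40%, against 12.1% of all genes, and the median difference was 0.23. Because the list was chosen with earlier results of these data known, this share is a description only. Mmp14, a membrane protease able to release TGF-beta, averaged 9.04 in nephritic and 6.94 in prenephritic macrophages, and ran from 8.70 to 9.59 on nephritic arrays, against 6.29 to 7.16 on prenephritic arrays. These groups were far apart, with a difference of 2.10 ± 0.18, or 4.27-fold. Ltbp3, a latent TGF-beta binding protein, differed by 0.61 ± 0.09, and Emilin1, an extracellular protein that restrains TGF-beta maturation, by 0.63 ± 0.12, and for both every nephritic array lay above every prenephritic array. Ltbp2 also passed the test, with both group means below the lower quartile of all values. Thbs1, the TGF-beta activator thrombospondin 1, rose by 0.46 ± 0.12 and Ltbp4 fell by 0.27 ± 0.08, and these 2 were named after their values were seen. The Thbs1 call was lost without prenephritic replicate 5 (adjusted p = 0.0544), and the Ltbp4 call without nephritic replicate 2, 3, 4, 5 or 6, or prenephritic replicate 3, 5 or 6 (adjusted p of 0.0504 to 0.0797). Both were also lost with the replicate block and without nephritic replicate 6 and prenephritic replicate 5 together (adjusted p of 0.0539 to 0.102).

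In remission against nephritic macrophages 0 genes of this list were called higher and 5 lower (33.3%, against 13.3% of all genes), with a median of -0.19. Mmp14 stood at 6.77, 6.46, 7.32 and 7.39 on the remission arrays, all below the nephritic arrays, and differed by -2.05 ± 0.20. Emilin1 differed by -0.95 ± 0.13 and Ltbp3 by -0.56 ± 0.11, again with no overlap of the groups. Ltbp2 and Nrros, a macrophage protein that tethers latent TGF-beta and was named after its values were seen, were the other 2, and Nrros differed by -0.50 ± 0.11.

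Of 9 co-receptors and other type I and type II receptors, 0 were called higher and 1 lower in nephritic against prenephritic macrophages. In remission against nephritic macrophages 0 were called. The 1 called lower was Acvr2b, a type II activin receptor, at -0.55 ± 0.15 (adjusted p = 0.0247). Its call was lost without prenephritic replicate 3, prenephritic replicate 5 or nephritic replicate 1 (adjusted p of 0.0536 to 0.0615).

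Of 20 measured SMAD transducers and regulators, 1 was called higher and 1 lower in nephritic against prenephritic macrophages. Pmepa1, a TGF-beta target whose product limits SMAD signalling, ran from 8.59 to 9.92 on nephritic arrays, against 9.79 to 10.53 on prenephritic arrays. All but 1 of the nephritic arrays lay below the prenephritic range, and the difference was -0.99 ± 0.20 (adjusted p = 0.0037). Relative to nephritic macrophages, Pmepa1 in remission was the 1 gene of this list called higher, at 0.85 ± 0.23, and 2 were called lower, Map3k7, the kinase TAK1, and Usp15, a ubiquitin protease. The Pmepa1 call in remission was lost without remission replicate 1 (adjusted p = 0.0632). Map3k7 differed by 0.20 ± 0.06 in nephritic against prenephritic macrophages, a call lost without nephritic replicate 1, 2, 3, 4, 6 or 7, prenephritic replicate 2, 4 or 6 or remission replicate 3 (adjusted p of 0.0509 to 0.0867). Usp15 differed by -0.27 ± 0.08 in remission against nephritic macrophages, a call lost without remission replicate 1, 2 or 4, or nephritic replicate 4, 6 or 7 (adjusted p of 0.0503 to 0.138). Both of these calls were also lost with quantile normalization repeated, array medians subtracted, pairwise fits and the replicate block. The same held without nephritic replicate 6 and prenephritic replicate 5, and without the 3 arrays farthest from the median tubule score.

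Of 15 measured TGF-beta response genes, 4 were called higher and 2 lower in nephritic against prenephritic macrophages. That was 40%, against 12.1% of all genes, and the median difference was 0.48. Because this list too was chosen with earlier results of these data known, its share is a description only. Klf10, an early TGF-beta response transcription factor, differed by 0.42 ± 0.08 and Tgfbi, an extracellular matrix protein, by 0.23 ± 0.04, with no overlap of the groups. Tagln and Acta2, contractile genes that are also in the fibroblast and mesangial cell marker list, differed by 0.81 ± 0.16 and 1.07 ± 0.27. The Acta2 call was lost without nephritic replicate 6 and prenephritic replicate 5 (0.88, adjusted p = 0.0699) and without the 3 arrays farthest from the median tubule score (0.97, adjusted p = 0.0543). Of the 12 measured markers of the fibroblast and mesangial cell list, 3 were called higher, Tagln and Acta2 among them, and 1 lower. The list means, which include both genes, were 6.75 to 7.51 on nephritic and 6.63 to 7.16 on prenephritic arrays. The part of those cells was not tested. The 2 called lower were Pmepa1 and Ldlrad4, whose product also limits SMAD signalling, at -0.32 ± 0.08. The Ldlrad4 call was lost with quantile normalization repeated (-0.30, adjusted p = 0.0599). Acta2 and Ldlrad4 were named after their values were seen.

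In remission against nephritic macrophages 1 response gene was called higher, Pmepa1, and 2 lower (20%, against 13.3% of all genes), with a median of -0.49. The 2 were Klf10 at -0.64 ± 0.09 and Tgfbi at -0.26 ± 0.05. For both, all 4 remission arrays lay below every nephritic array. Thus Klf10 and Tgfbi moved with opposite signs to Pmepa1 and Tgfbr1 in each of these comparisons, which share the nephritic arrays.

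Among 12 measured ligands and antagonists of the wider TGF-beta superfamily, 1 was called higher and 1 lower in nephritic against prenephritic macrophages. Gdf3, a ligand also made by macrophages, ran from 9.83 to 10.56 on nephritic arrays, against 7.25 to 8.74 on prenephritic arrays, with no overlap and a difference of 2.27 ± 0.24. Bmp2, a bone morphogenetic protein, differed by -1.27 ± 0.34 (adjusted p = 0.0210), and its call was lost without prenephritic replicate 3 (adjusted p = 0.0508). In remission Gdf3 stood at 8.30, 8.13, 9.33 and 9.12, all below the nephritic arrays, and its difference from nephritic macrophages of -1.61 ± 0.27 was the 1 call of this list, which had 0 called higher.

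Of 6 genes for PDGF receptors, a further ligand, activating proteases and the receptor partner Lrp1, 0 were called in nephritic against prenephritic macrophages. In remission against nephritic macrophages 0 were called higher and 2 lower. Pdgfrb, the receptor for PDGF-B and a mesangial cell and pericyte marker, averaged 7.37 in remission and 8.00 in nephritic macrophages, a difference of -0.63 ± 0.20 (adjusted p = 0.0449) whose call was lost without remission replicate 2, 3 or 4, nephritic replicate 1, 6 or 7 or prenephritic replicate 2, 3, 4 or 6 (adjusted p of 0.0506 to 0.152). Lrp1, an endocytic receptor that binds PDGF receptor beta, differed by -0.56 ± 0.14, and its call was lost without remission replicate 2 or 3 (adjusted p of 0.0588 to 0.0716).

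Of 15 measured genes of the IGF axis, 0 were called in nephritic against prenephritic macrophages, and 2 were called higher and 1 lower in remission against nephritic macrophages. Igf1r, the IGF1 receptor, differed by 0.70 ± 0.18, and Igfbp5, an IGF binding protein, by 1.46 ± 0.36, and both calls were lost without remission replicate 1 or 2 (adjusted p of 0.0521 to 0.0723 for Igf1r and 0.0551 to 0.0572 for Igfbp5). With the tubule score in the fit the Igfbp5 difference was 0.74. Igfbp6, another binding protein, differed by -0.94 ± 0.27, a call lost without remission replicate 1, 2 or 3, or nephritic replicate 1, 3 or 4 (adjusted p of 0.0579 to 0.103).

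Of 9 VEGF ligands and receptors, 2 were called higher and 1 lower in nephritic against prenephritic macrophages, and 2 higher and 1 lower in remission against nephritic macrophages. Vegfc, a ligand of lymphatic endothelium, ran from 6.84 to 8.28 on nephritic arrays, against 8.30 to 9.21 on prenephritic arrays, with no overlap and a difference of -1.41 ± 0.21. In remission Vegfc stood at 8.66, 8.05, 7.90 and 8.12, and differed from nephritic macrophages by 0.78 ± 0.23 (adjusted p = 0.0367), a call lost without remission replicate 1 or 2, or nephritic replicate 2, 4, 5 or 6 (adjusted p of 0.0540 to 0.149). The co-receptors Nrp2 and Nrp1 differed by 0.79 ± 0.10 and 0.48 ± 0.12 in nephritic against prenephritic macrophages. Nrp2 differed by -0.77 ± 0.12 in remission against nephritic macrophages, where all 4 remission arrays lay below every nephritic array. Vegfb, a ligand of VEGF receptor 1, differed by 0.45 ± 0.11 there, a call lost without remission replicate 2 (adjusted p = 0.0600).

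Of 15 measured hypoxia response genes, 0 were called in nephritic against prenephritic macrophages, and 0 were called higher and 1 lower in remission against nephritic macrophages. The 1 was Arnt, the partner of the hypoxia-inducible factors, at -0.49 ± 0.11, and its call was lost without remission replicate 2 (adjusted p = 0.0504). Of 22 measured other repair growth factors, 1 was called higher and 0 lower in nephritic against prenephritic macrophages, namely Grn, the progranulin gene, at 0.41 ± 0.07. In remission against nephritic macrophages 0 were called higher and 4 lower, and Grn differed by -0.45 ± 0.08. The others were Hgf, the hepatocyte growth factor gene, at -0.48 ± 0.13, Metrnl, a cytokine of macrophages and fat, at -0.49 ± 0.15, and Ereg, an EGF family ligand with both means below the lower quartile of all values. The Hgf call was lost without remission replicate 1 or 2 (adjusted p of 0.112 to 0.122), the Metrnl call without remission replicate 1, 2 or 3, or nephritic replicate 1, 3, 4 or 6 (adjusted p of 0.0525 to 0.150) and the Ereg call without 1 array, remission replicate 3 (adjusted p = 0.0604).

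**Figure D4:**
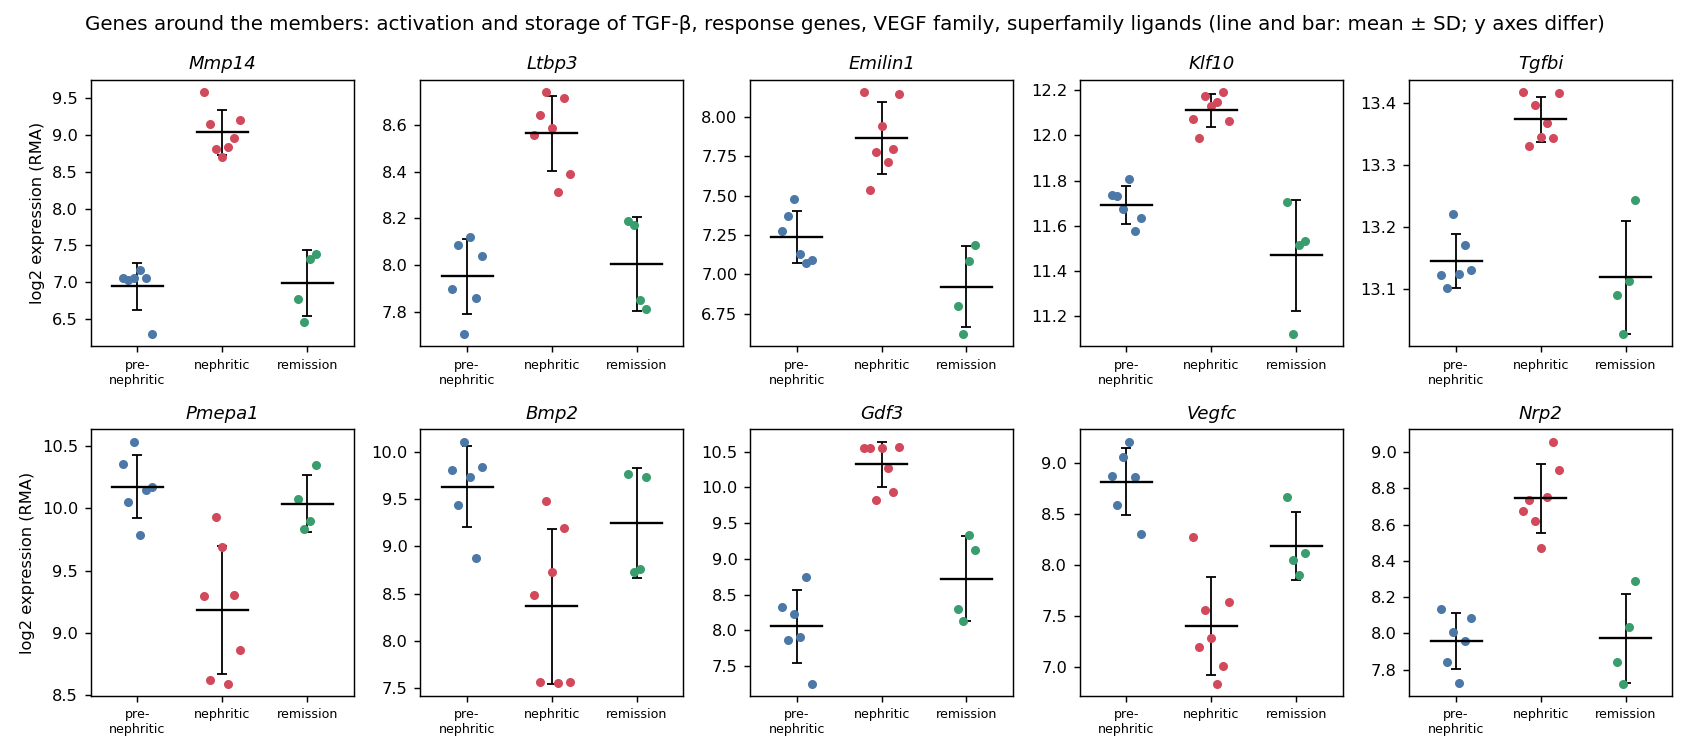
Log2 expression (vertical axes) of pathway genes named in the text on each array of the prenephritic (n = 6), nephritic (n = 7) and remission (n = 4) groups, with the mean and SD. Mmp14 and Gdf3 are higher on every nephritic array than on any prenephritic or remission array, while Vegfc is lower on every nephritic than on every prenephritic array.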

How the data were processed

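The deposited log2 values were produced with RMA, per the submitters' processing notes. Probe definition and build were not stated there. The table held 16539 probe sets, and 15780 non-control probe sets with 1 gene symbol in GEO's platform annotation were tested. The 17 arrays were fitted together, with 1 coefficient per group and 14 residual degrees of freedom, in limma 3.58.1 (R 4.3.3), and p-values of the two-sided moderated tests were adjusted after Benjamini and Hochberg across all genes, with a threshold of 0.05. The number of arrays limits the precision. The fit was also run on simulated data with independent noise for each gene. Those data lacked variation shared between genes, such as that with tubule transcripts, and no result here rests on them. The 10 genes and the gene lists were chosen with earlier results of these data known. Of each list and comparison, up to 4 called genes with the smallest p were named, with the 3 genes most correlated with each called member. Alternatives were another normalization, array weights, pairwise fits, a replicate block, a tubule score in the fit and left-out arrays. Promoter sequences came from RefSeq (GRCm38.p6).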

Additional observations from a re-analysis of the deposited data

Results flagged for a closer look

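Dixon's gap rule was applied to 111 sets of values, 37 genes in each of 3 groups, and found 2; chance alone finds about 5% of sets. Pdgfa on nephritic replicate 3 was 8.95, above the other nephritic arrays at 8.36 to 8.58, and this array also had the lowest tubule score (-2.06). Mmp14 on prenephritic replicate 6 was 6.29, below the other prenephritic arrays at 7.02 to 7.16.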

How the results depend on the processing

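Of 300 values of the 10 genes under 10 alternatives, 279 kept their sign and their side of the threshold, 14 changed sign, 3 lost a call and 4 gained one. Of 510 values with 1 array left out, 478 kept both, 19 changed sign, 9 lost a call and 4 gained one; no sign change came with a call. The Pdgfb call in nephritic against prenephritic macrophages was kept in all of them. The number of the 10 genes called there was 2. It was 1 without nephritic replicate 6 and prenephritic replicate 5, the lowest and highest Tgfbr1 arrays. With the tubule score in the model it was 3, where Pdgfc passed too. In remission against nephritic macrophages the 1 call became 0 with array medians subtracted, 3 with array weights, 2 with the tubule score in the model and 0 without the 3 arrays farthest from the median tubule score (an alternative chosen after seeing the data; Tgfbr1 0.79, adjusted p = 0.0501). With 1 array left out the 3 counts ran from 2 to 3, 0 to 2 and 0 to 0.

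The labels give no pairing beyond replicate numbers, and whether these numbers pair the samples was not settled. Of 14 same-numbered pairs, with correlations from -0.26 to 0.80, 8 had a correlation over 0.1. An array correlated best with its own number in 7 of 28 choices. With the replicate block the counts stayed at 2, 1 and 0 of the 10 genes, and over all genes were 1700, 2887 and 478, against 1904, 2100 and 1 without it. Under all 10 alternatives the counts over all genes ran from 1236 to 2897, 915 to 3624 and 0 to 478. Of 44 called pathway differences, 17 were lost without the 3 arrays, 12 with the tubule score, 9 without nephritic replicate 6 and prenephritic replicate 5, and at most 5 under each other alternative, with 0 sign changes.

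Signs that changed, none past the threshold, were as follows. In remission against nephritic macrophages Pdgfc was 0.00535 with quantile normalization repeated, 0.17 with the block and 0.0595 without nephritic replicate 6 and prenephritic replicate 5. Tgfbr2 was -0.00821 with medians subtracted, -0.0222 with array weights and -0.00844 with the block, Igf1 was -0.0748 with the block, and Tgfb3 was 0.33 with the tubule covariate and 0.15 without the 3 arrays. In remission against prenephritic macrophages Tgfbr1 was 0.0235 with the block, 0.19 with the covariate, and 0.10 without either set of arrays. In nephritic against prenephritic macrophages Vegfa was -0.10 without nephritic replicate 6 and prenephritic replicate 5. The cause was not tested. With 1 array left out, the differences whose sign changed ran from -0.0774 to 0.141 (Igf1), -0.218 to 0.155 (Pdgfc), -0.319 to 0.0811 (Tgfb3) and -0.0904 to 0.0524 (Tgfbr2) in remission against nephritic, -0.121 to 0.104 (Tgfbr1) and -0.0186 to 0.139 (Tgfbr2) in remission against prenephritic, and -0.0144 to 0.193 (Tgfb1) and -0.0328 to 0.192 (Vegfa) in nephritic against prenephritic macrophages.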
